A study of Mus musculus with 6 samples.

Results

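The 9 genes described here, Ccr2, Cx3cr1, Csf1r, Ms4a6c, Ms4a4c, F13a1, Ly6c2, Vcam1 and Adgre1, are genes by which mouse monocytes and macrophages are usually recognised. They were chosen by how they differed between the genotypes in these same libraries, so their differences are given as a description with no test, and they are 9 of the 54532 genes in the deposited table. The RNA came from neutrophils taken from the bone marrow of C57BL/6J mice with anti-Ly-6G magnetic beads, held in culture for 2 h and then given live Candida albicans for 6 h. There were 6 cultures, 3 from WT mice (WT 1, 2 and 3) and 3 from progranulin knockout mice (PGRN KO 4, 5 and 6), and all 6 received the fungus, so no level without it is known. The labels give 1 fungal cell per neutrophil, and the study text gives another ratio for these cultures. Progranulin, the secreted protein encoded by Grn, is missing from every cell of the knockout mice, which were bought from a supplier, while the WT mice came from the authors' university. The mice were matched for sex and age, but the sources used here give neither the ages nor how many mice supplied a culture. Because nothing states that the cultures came from separate mice, the p-values given here measure only the spread between these samples, which may be technical.

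Classical monocytes leave the bone marrow by means of CCR2, the receptor for the chemokine CCL2, and carry Ly6C on their surface. Patrolling, or nonclassical, monocytes carry little Ly6C and much CX3CR1, the fractalkine receptor. CSF1R is the receptor for the growth factors M-CSF and IL-34, on which most macrophages depend, and F4/80, encoded by Adgre1, is the classical macrophage surface antigen. Ms4a6c and Ms4a4c encode membrane proteins that span the membrane 4 times, F13a1 encodes the catalytic chain of clotting factor XIII, and VCAM-1 is the adhesion molecule bound by the integrin of the Itga4 and Itgb1 chains. Several of these are not exclusive to monocytes, since Ly6c2 is also transcribed in developing neutrophils.

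The libraries held 17087344 to 18821091 fragments on genes, recovered from the FPKM values (fragments scaled to gene length and library size, the unit of every level here). Grn was at 168.4, 161.3 and 166.1 FPKM in WT and at 0.242, 0.206 and 0.747 in PGRN KO, which matches the labels. The neutrophil genes were abundant in all 6 libraries, and the summed level of 12 of them was 67560 to 72200 FPKM in WT against 69380 to 79150 in PGRN KO. Genotypes were compared by limma on log2(FPKM + 1) over the 14807 genes with a mean of at least 0.1 FPKM, and all 9 genes passed that filter. At an adjusted p under 0.05, 2648 genes (17.9%) were called, of which 1175 (7.94%) were higher and 1473 (9.95%) lower in PGRN KO. The authors' library sizes set this split, as scaling to the plain totals of fragments called 2147 genes higher and 933 lower. The values of the 3 PGRN KO libraries all lay above or all lay below those of the 3 WT libraries in 5581 genes (37.7%).

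The 9 genes did not move together. The levels of Ccr2, Ms4a6c, Ms4a4c, F13a1 and Csf1r were lower in every PGRN KO library than in any WT library, with ratios of the means from 0.439 for Ms4a6c to 0.897 for Csf1r. Ly6c2 and Vcam1 were higher in every PGRN KO library, at 1.30 and 1.65 times the WT mean, and Adgre1 and Cx3cr1 overlapped between the genotypes. That 7 of the 9 did not overlap, where 37.7% of tested genes did not, follows from a choice made on this same contrast, and nothing is read from it. In bulk RNA a smaller number of monocytes and less of a transcript per cell cannot be told apart.

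**Figure D1:**
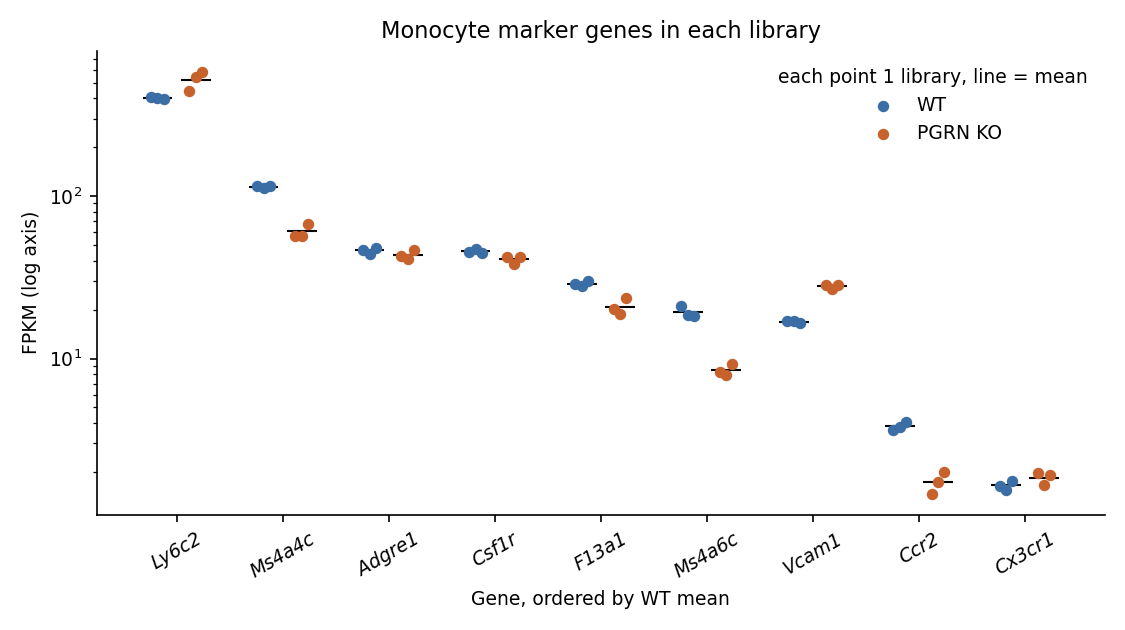
Level of each of the 9 genes in each library (FPKM, on a log axis), with WT and PGRN KO libraries as separate points. Ccr2, Ms4a6c, Ms4a4c, F13a1 and Csf1r lie lower in all 3 PGRN KO libraries, Ly6c2 and Vcam1 lie higher, and Adgre1 and Cx3cr1 overlap.

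The stretch of 250 bases before the transcription start, taken from RefSeq on GRCm38.p6, was on hand for 6 of the 9 genes. The RefSeq start differs from the gene start in the deposited table by 2891 bases in Ms4a4c, 1583 in Cx3cr1 and 233 in Ccr2, so that the windows of Ms4a4c and Cx3cr1 and most of that of Ccr2 lie inside the deposited gene span, and by 2 bases or fewer in the other 3. It is given here, 5′ to 3′ on the gene's strand, for the 3 genes with the lowest ratio of PGRN KO to WT and for Ly6c2, which lay on the other side. Capitals mark matches on either strand to an interferon response element (GAAANNGAA) in Ccr2 and Ms4a6c, and to the core bound by PU.1 (GAGGAA), the myeloid transcription factor encoded by Spi1, in Ms4a4c and Ly6c2. The windows are chr9:124101933-124102182 on the plus strand for Ccr2, chr19:11469118-11469367 on the plus strand for Ms4a6c, chr19:11407411-11407660 on the plus strand for Ms4a4c and chr15:75111972-75112221 on the minus strand for Ly6c2.
Ccr2: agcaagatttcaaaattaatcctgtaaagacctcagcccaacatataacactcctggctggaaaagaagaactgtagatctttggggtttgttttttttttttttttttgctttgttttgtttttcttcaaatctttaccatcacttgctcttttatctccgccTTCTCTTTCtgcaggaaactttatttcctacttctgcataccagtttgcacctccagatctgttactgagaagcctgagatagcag
Ms4a6c: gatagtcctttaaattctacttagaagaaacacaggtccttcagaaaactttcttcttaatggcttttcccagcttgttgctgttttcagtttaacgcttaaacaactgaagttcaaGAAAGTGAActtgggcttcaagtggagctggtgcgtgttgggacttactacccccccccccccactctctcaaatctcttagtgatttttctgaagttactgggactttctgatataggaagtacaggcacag
Ms4a4c: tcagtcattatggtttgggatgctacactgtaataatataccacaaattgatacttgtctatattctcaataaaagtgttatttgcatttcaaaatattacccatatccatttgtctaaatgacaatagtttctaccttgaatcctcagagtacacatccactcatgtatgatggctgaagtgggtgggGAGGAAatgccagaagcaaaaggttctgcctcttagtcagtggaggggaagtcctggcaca
Ly6c2: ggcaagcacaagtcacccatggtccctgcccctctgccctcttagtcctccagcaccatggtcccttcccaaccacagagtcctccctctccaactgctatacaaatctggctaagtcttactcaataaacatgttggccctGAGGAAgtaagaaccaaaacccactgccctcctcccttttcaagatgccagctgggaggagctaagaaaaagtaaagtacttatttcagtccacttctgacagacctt
The marked stretch begins 86 bases before the start in Ccr2, 133 in Ms4a6c, 61 in Ms4a4c and 108 in Ly6c2. Of the other promoters, that of F13a1 held the PU.1 core 66 bases before the start and that of Cx3cr1 held neither motif. A C/EBP motif (TTGCNNAA) was searched as well and was in none of the 6. Among all 32851 promoters of this length, 7.13% held the interferon response element, 23.3% the PU.1 core and 9.56% the C/EBP motif, on either strand. A match is not a shown binding site, and whether these motifs bear on the levels was not tested.

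Among the receptors, Ccr2 (ENSMUSG00000049103, chr9:124101950-124113557 on GRCm38, plus strand) was at 3.614, 3.796 and 4.051 FPKM in WT against 1.475, 1.727 and 1.994 in PGRN KO. The genotypes did not overlap, and the means were 3.82 ± 0.219 and 1.73 ± 0.260 (SD, n = 3 each), 2.21 times lower in PGRN KO. The log2 difference was -0.82 with a standard error of 0.087, on 1312 fragments in WT against 655 in PGRN KO. Among the ligands of CCR2, Ccl2 was called higher in PGRN KO, at 5.225, 5.058 and 4.977 FPKM in WT against 7.828, 6.774 and 6.884 in PGRN KO (log2 difference 0.42, SE 0.066, limma adjusted p = 0.00818). The other ligands were sparse. Ccl7 averaged 0.566 FPKM in WT against 0.226 in PGRN KO and was not called (adjusted p = 0.102), and Ccl12 averaged 0.110 and 0.0973 FPKM.

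Cx3cr1 (ENSMUSG00000052336, chr9:119901616-120069879, minus strand) was at 1.647, 1.557 and 1.763 FPKM in WT against 1.965, 1.662 and 1.920 in PGRN KO. The genotypes overlapped, with means of 1.66 ± 0.103 and 1.85 ± 0.163 (SD, n = 3 each) and a log2 difference of 0.10 with a standard error of 0.073, or 0.18 when scaled to plain totals. It rested on 379 and 464 fragments, and counting error alone gives a coefficient of variation of 8.90% in WT and 8.04% in PGRN KO, close to the 6.23% and 8.83% measured. The gene model of Cx3cr1 spans 9 other models, among them Csrnp1 on the same strand (113.3 FPKM in WT against 62.82 in PGRN KO), so its low level is uncertain. Its ligand Cx3cl1 was near 0 and was not tested.

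Csf1r (ENSMUSG00000024621, chr18:61105572-61132149, plus strand) was at 45.18, 47.01 and 44.61 FPKM in WT against 42.25, 38.01 and 42.45 in PGRN KO. All PGRN KO values lay below all WT values, but by little, with means of 45.6 ± 1.25 and 40.9 ± 2.51 (SD, n = 3 each) and a log2 difference of -0.15 with a standard error of 0.055. Scaled to plain totals of fragments the difference was -0.037. Its ligand M-CSF, encoded by Csf1, was abundant in these cultures and was called lower in PGRN KO, at 355.0, 387.4 and 392.5 FPKM in WT against 307.7, 271.8 and 252.9 in PGRN KO (log2 difference -0.45, SE 0.080, limma adjusted p = 0.0117). That call was lost without WT 2, WT 3 or PGRN KO 5. Adam17, a protease that sheds CSF1R from the surface, was called lower by a log2 difference of -0.25 (limma adjusted p = 0.0216), and this call was lost without any 1 of WT 1, WT 2, WT 3, PGRN KO 4 and PGRN KO 5 and under both other scalings. The second ligand, Il34, was near 0 and was not tested.

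Of the 2 MS4A genes, Ms4a6c (ENSMUSG00000079419, chr19:11469366-11482192, plus strand) was at 20.94, 18.57 and 18.37 FPKM in WT against 8.281, 7.924 and 9.207 in PGRN KO. The genotypes were far apart for the spread within them, with means of 19.3 ± 1.43 and 8.47 ± 0.662 (SD, n = 3 each) and a log2 difference of -1.10 with a standard error of 0.075. Ms4a4c (ENSMUSG00000024675, chr19:11404770-11427246, plus strand) was at 116.0, 111.8 and 115.5 FPKM in WT against 56.63, 57.14 and 67.78 in PGRN KO. It was the more abundant of the pair, with means of 114.5 ± 2.29 and 60.5 ± 6.30 (SD, n = 3 each) and a log2 difference of -0.91 with a standard error of 0.073. The interferon response element shown above lies in the window of Ms4a6c. The PU.1 core lies in that of Ms4a4c, which is inside the deposited gene span. Whether either motif bears on these levels was not tested.

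Both genes lie in the Ms4a cluster on chromosome 19, and 9 of the 19 Ms4a genes in the table were tested. Beside these 2 genes, Ms4a6d, Ms4a6b and Ms4a4a were called lower. Ms4a6d averaged 71.6 ± 4.84 FPKM in WT against 38.4 ± 3.69 in PGRN KO (SD, n = 3 each), a log2 difference of -0.89 (SE 0.081, limma adjusted p = 0.00118). The values of Ms4a6b were 5.55 ± 0.338 and 3.01 ± 0.570 FPKM (log2 difference -0.72), and those of Ms4a4a were 43.1 ± 1.78 and 32.5 ± 2.38 FPKM (log2 difference -0.40). At the far end of the cluster the direction changed. Ms4a3, a gene of granulocyte and monocyte precursors, was called higher, at 12.54 to 13.30 FPKM in WT against 28.16 to 31.16 in PGRN KO (log2 difference 1.14, SE 0.053, limma adjusted p = 0.000105). Its neighbour Ms4a2, the beta chain of the IgE receptor of mast cells and basophils, was called higher at a low level, 0.266 FPKM in WT against 0.718 in PGRN KO, and that call held only without PGRN KO 5 when 1 library was left out. Ms4a4b and Ms4a7 were not called, and 5 Ms4a genes were at 0 in all 6 libraries, which allows up to 3 fragments each per library. Of the 100-base stretches of Ms4a4c transcripts, 1.66% also occur in Ms4a4b, which averaged 0.187 FPKM in WT, and 0.513% of those of Ms4a6c occur in another gene.

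F13a1 (ENSMUSG00000039109, chr13:36867178-37050244, minus strand) was at 28.59, 27.82 and 30.07 FPKM in WT against 20.27, 18.76 and 23.43 in PGRN KO. It lay lower in all PGRN KO libraries, with means of 28.8 ± 1.14 and 20.8 ± 2.38 (SD, n = 3 each) and a log2 difference of -0.46 with a standard error of 0.082, a smaller difference than in Ccr2 or the MS4A pair.

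Ly6c2 (ENSMUSG00000022584, chr15:75108158-75111970, minus strand), which encodes the Ly6C antigen of classical monocytes, was the most abundant of the 9 genes. It was at 404.6, 402.7 and 395.9 FPKM in WT against 441.7, 540.1 and 581.7 in PGRN KO, so that its direction was opposite to that of Ccr2. The WT libraries were nearly equal and the PGRN KO libraries were not, with means of 401.1 ± 4.58 and 521.2 ± 71.9 (SD, n = 3 each) and a log2 difference of 0.37 with a standard error of 0.098. Of the other Ly6 genes, 6 were tested and 3 were called higher, beside 7.94% of all tested genes. Ly6e averaged 129.8 ± 3.46 FPKM in WT against 184.0 ± 10.1 in PGRN KO (SD, n = 3 each; log2 difference 0.50, SE 0.051, limma adjusted p = 0.0017). Ly6i averaged 24.2 ± 1.47 and 37.8 ± 1.40 FPKM (log2 difference 0.62, SE 0.057, limma adjusted p = 0.00118), and Ly6d averaged 0.426 and 1.30 FPKM, a call that was lost without WT 1, PGRN KO 4, PGRN KO 5 or PGRN KO 6. Ly6c1, Ly6a and Ly6g, which encodes the antigen the beads bind, were not called. Ly6g was at 52.81, 49.14 and 47.73 FPKM in WT against 37.95, 47.99 and 50.87 in PGRN KO, and like Ly6c2 it was lowest among the PGRN KO libraries in PGRN KO 4. Of the 100-base stretches of Ly6c2 transcripts, 5.81% also occur in Ly6c1, which averaged 0.387 FPKM in WT against 0.783 in PGRN KO.

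**Figure D2:**
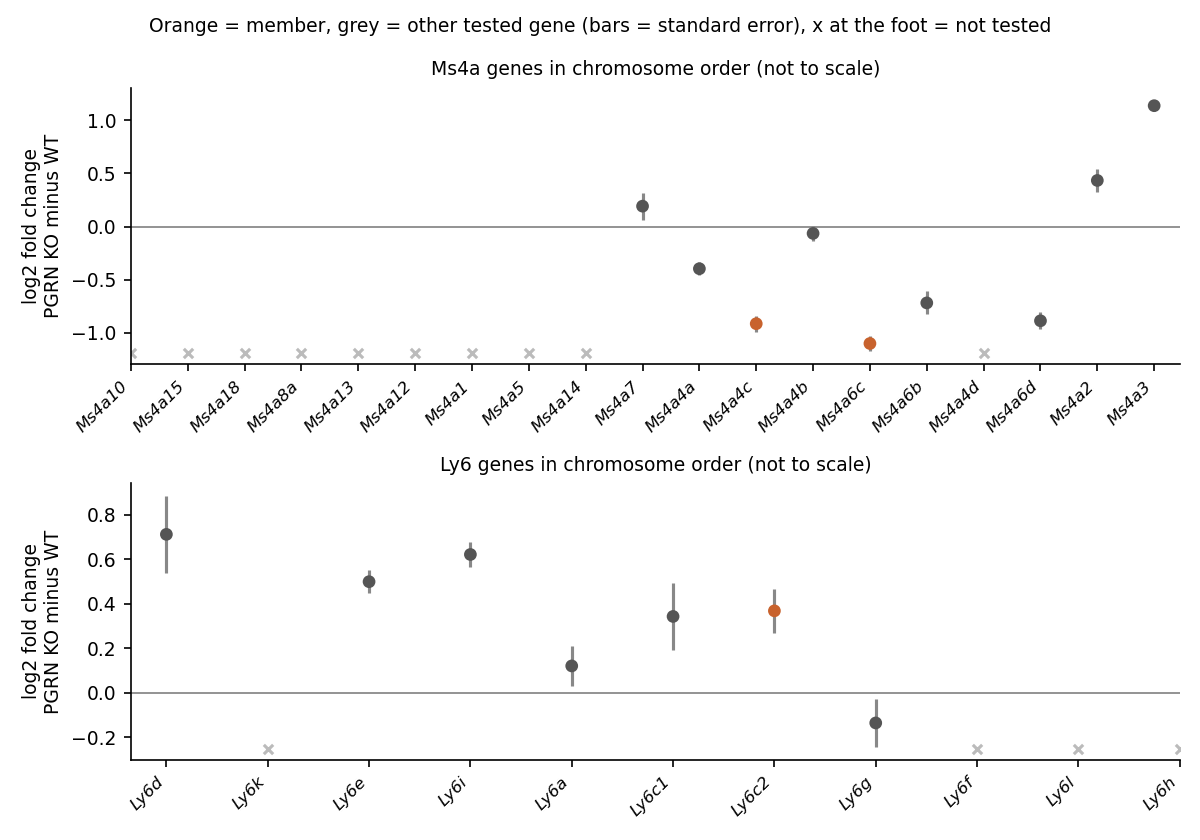
Log2 difference of PGRN KO from WT (error bars, standard error) for the genes of the Ms4a cluster on chromosome 19 and the Ly6 genes on chromosome 15, in chromosome order and not to distance, with genes that were not tested as crosses at the foot. Ms4a4c, Ms4a6c, Ms4a6b and Ms4a6d lie below 0, Ms4a2 and Ms4a3 lie above 0, and Ly6c2, Ly6e and Ly6i lie above 0.

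Vcam1 (ENSMUSG00000027962, chr3:116109949-116129688, minus strand) was at 17.03, 17.02 and 16.58 FPKM in WT against 28.35, 26.94 and 28.36 in PGRN KO. It had the tightest libraries of the 9 genes in PGRN KO, with means of 16.9 ± 0.254 and 27.9 ± 0.821 (SD, n = 3 each) and a log2 difference of 0.69 with a standard error of 0.043. Its integrin partner moved the other way in 1 chain. Itga4 was called lower, at 2.750, 2.393 and 2.657 FPKM in WT against 1.443, 1.426 and 1.580 in PGRN KO (log2 difference -0.54, SE 0.070, limma adjusted p = 0.00412). Itgb1, the shared beta chain, averaged 89.4 ± 0.451 and 80.8 ± 5.44 FPKM and was not called (adjusted p = 0.115). Vcam1 is also a gene of stromal and endothelial cells. Of 8 genes listed for those cells, 4 were tested and all 4 were called lower, beside 9.95% of all tested genes. The summed level of the 8 was 12.89 to 14.25 FPKM in WT against 7.307 to 7.829 in PGRN KO. Pecam1, which is not exclusive to those cells, was the largest part of that sum, averaging 7.10 FPKM in WT against 4.60 in PGRN KO. Cxcl12, Lepr, Kitl and Cdh5 were at or below 0.031 FPKM, so the sum does not measure the number of such cells. The count called lower was 2 without WT 1 or PGRN KO 5. Their part in the level of Vcam1 was not tested.

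Adgre1 (ENSMUSG00000004730, chr17:57358691-57483527, plus strand) was at 46.69, 44.29 and 48.06 FPKM in WT against 42.89, 40.76 and 46.52 in PGRN KO. The genotypes overlapped, with means of 46.3 ± 1.91 and 43.4 ± 2.91 (SD, n = 3 each). The log2 difference of -0.094, with a standard error of 0.061, turned to 0.024 when the libraries were scaled to plain totals, and so its direction rests on the scaling.

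The levels of the 9 genes per kilobase ran from 1.66 FPKM for Cx3cr1 to 401.1 for Ly6c2 in WT. Of the tested genes, 99.2% had a lower WT mean than Ly6c2, 96.9% than Ms4a4c, 60.8% than Ccr2 and 46.3% than Cx3cr1, so that the 2 chemokine receptors were near the middle of the range. In WT the order was Ly6c2, Ms4a4c, Adgre1, Csf1r, F13a1, Ms4a6c, Vcam1, Ccr2 and Cx3cr1, and of neighbours only Adgre1 and Csf1r overlapped. In PGRN KO, Vcam1 stood above F13a1 and Ms4a6c, and Cx3cr1 stood above Ccr2, although the libraries of that last pair overlapped, as did those of Adgre1 and Csf1r. The summed level of the 9 genes was 674.6 to 684.3 FPKM in WT against 643.8 to 803.4 in PGRN KO, of which Ly6c2 was the greater part.

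A ratio of 2 genes in the same library does not depend on the library size. Set against Csf1r, Ccr2 was at 0.080 to 0.091 of its level in WT against 0.035 to 0.047 in PGRN KO, and the mean ratio in PGRN KO was 0.506 of that in WT. Ms4a6c to Csf1r was at 0.489 of its WT mean ratio, Ms4a4c to 0.589 and F13a1 to 0.803. Vcam1 to Csf1r stood at 1.84 times its WT mean ratio and Ly6c2 to Csf1r at 1.45 times. None of these 6 ratios overlapped between genotypes, but the genes were chosen on this same contrast. The share of other gene pairs without overlap was not computed, so nothing is read from that count. Cx3cr1 to Csf1r was 0.0364 in WT against 0.0452 in PGRN KO, also apart, and Adgre1 to Csf1r was 1.02 and 1.06 and overlapped. The ratio of Ly6c2 to Ccr2, both genes of classical monocytes, was 111.9, 106.1 and 97.73 in WT against 299.4, 312.8 and 291.7 in PGRN KO. That is 2.86 times the WT mean ratio, and the libraries were alike within each genotype. The ratio of Ly6c2 to Ly6g was 7.661, 8.196 and 8.295 in WT against 11.64, 11.25 and 11.43 in PGRN KO. The spread of Ly6c2 among the PGRN KO libraries was thus small once set against Ly6g, and this pair was singled out after the values were seen.

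**Figure D3:**
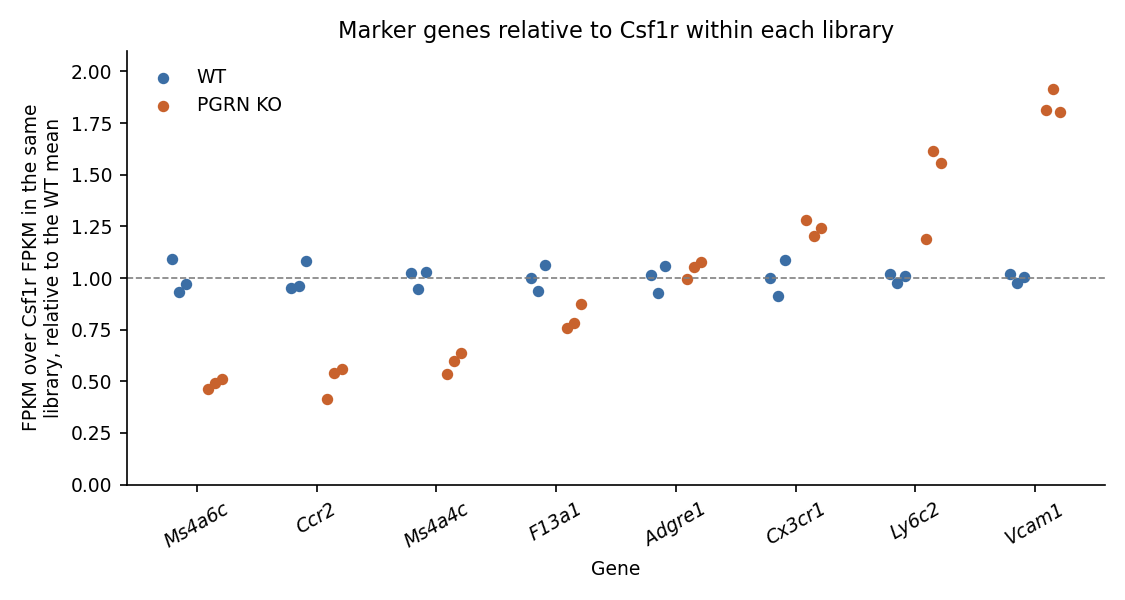
Level of each gene divided by that of Csf1r in the same library, relative to the WT mean of that ratio (linear axis). WT and PGRN KO libraries are separate points. The ratios of Ccr2, Ms4a4c, Ms4a6c and F13a1 are lower in PGRN KO, those of Ly6c2 and Vcam1 are higher, and those of Adgre1 overlap.

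All gene lists here were written with earlier results of these data known, so their counts are no independent support. Another 20 genes of classical monocytes, which are not among the 9, were all tested. None was called higher and 11 were called lower, beside 9.95% of all tested genes, and the list's median log2 difference was -0.39 against 0.003 over all tested genes. Tgfbi, a secreted matrix protein of monocytes and macrophages, was at 79.28, 73.06 and 75.16 FPKM in WT against 28.41, 28.06 and 25.75 in PGRN KO. Its log2 difference was -1.44 (SE 0.055, limma adjusted p = 5.16e-05), a larger difference than in any of the 9. Clec4a3, a C-type lectin receptor, averaged 20.2 ± 1.84 FPKM in WT against 9.97 ± 0.647 in PGRN KO (SD, n = 3 each; limma adjusted p = 0.000783), and Ms4a6d, given above, was the third. The other genes called lower were Clec4a1, Ccl9, Ms4a6b, Ly86, Mpeg1, Fn1, Ctss and Irf8, and the call of Fn1 was lost without WT 2 or PGRN KO 5. Cd14, the co-receptor for lipopolysaccharide, was not called, at 2870 to 3128 FPKM in WT against 2880 to 3101 in PGRN KO, and neither were F10, Vcan, Emb, Klf4, Gpr141, Lyz1, Tmem176a and Tmem176b.

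Of 11 genes of nonclassical monocytes, 8 were tested, 2 were called lower and none higher, beside 9.95% lower and 7.94% higher of all tested genes. Gngt2 averaged 21.4 ± 2.08 FPKM in WT against 12.2 ± 1.30 in PGRN KO (SD, n = 3 each; log2 difference -0.77, limma adjusted p = 0.00346). Treml4 averaged 39.2 ± 3.80 and 27.2 ± 1.81 FPKM (log2 difference -0.51, limma adjusted p = 0.00906). Nr4a1, the factor on which these monocytes depend, averaged 277.8 and 231.9 FPKM and was not called, though without PGRN KO 4 the count called lower rose to 4, with Nr4a1 and Pou2f2 added. Of 20 genes of tissue macrophages, 10 were tested, and 8 were called lower and none higher, beside those same shares of all tested genes. Axl, a receptor tyrosine kinase for dying cells, averaged 17.1 ± 1.03 FPKM in WT against 6.88 ± 0.309 in PGRN KO (log2 difference -1.20, limma adjusted p = 0.000151). Spic, a factor of iron-recycling macrophages, averaged 9.31 ± 0.769 and 3.71 ± 0.198 FPKM (log2 difference -1.13, limma adjusted p = 0.000353), and Marco, a scavenger receptor, 0.960 and 0.235 FPKM (log2 difference -0.66, limma adjusted p = 0.0108). Levels within the list were uneven. Hmox1 and Cd68 averaged 4791 and 510.7 FPKM in WT, whereas Fcna, Mertk and Vsig4 were at 0 in all 6 libraries, and C1qa, C1qb, C1qc, Cd5l and Cd163 each had 1 or 2 fragments in a single library. Maf, Cd68, Hmox1 and Slc40a1 were also called lower, and the call of Slc40a1 was lost without WT 1, WT 2, WT 3 or PGRN KO 5. The call of Marco was lost under a filter at 1 FPKM.

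Of 14 transcription factors that act in monocytes, 7 were called lower and 1 higher, beside 9.95% lower and 7.94% higher of all tested genes. Egr1 averaged 40.3 ± 0.657 FPKM in WT against 21.5 ± 2.26 in PGRN KO (SD, n = 3 each; log2 difference -0.88, limma adjusted p = 0.000971), and Egr2 averaged 7.75 ± 0.341 and 4.13 ± 0.285 FPKM (log2 difference -0.77, limma adjusted p = 0.000846). Maf had a log2 difference of -0.64 (limma adjusted p = 0.00225), and Zeb2, Irf5 and Irf8 were also lower. Id3 was higher, by a log2 difference of 0.41 (limma adjusted p = 0.0116), a call that was lost without WT 2 or PGRN KO 5. Spi1, which encodes the PU.1 whose motif is shown above, averaged 192.8 ± 13.2 and 170.6 ± 14.3 FPKM and was not called (adjusted p = 0.169).

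**Figure D4:**
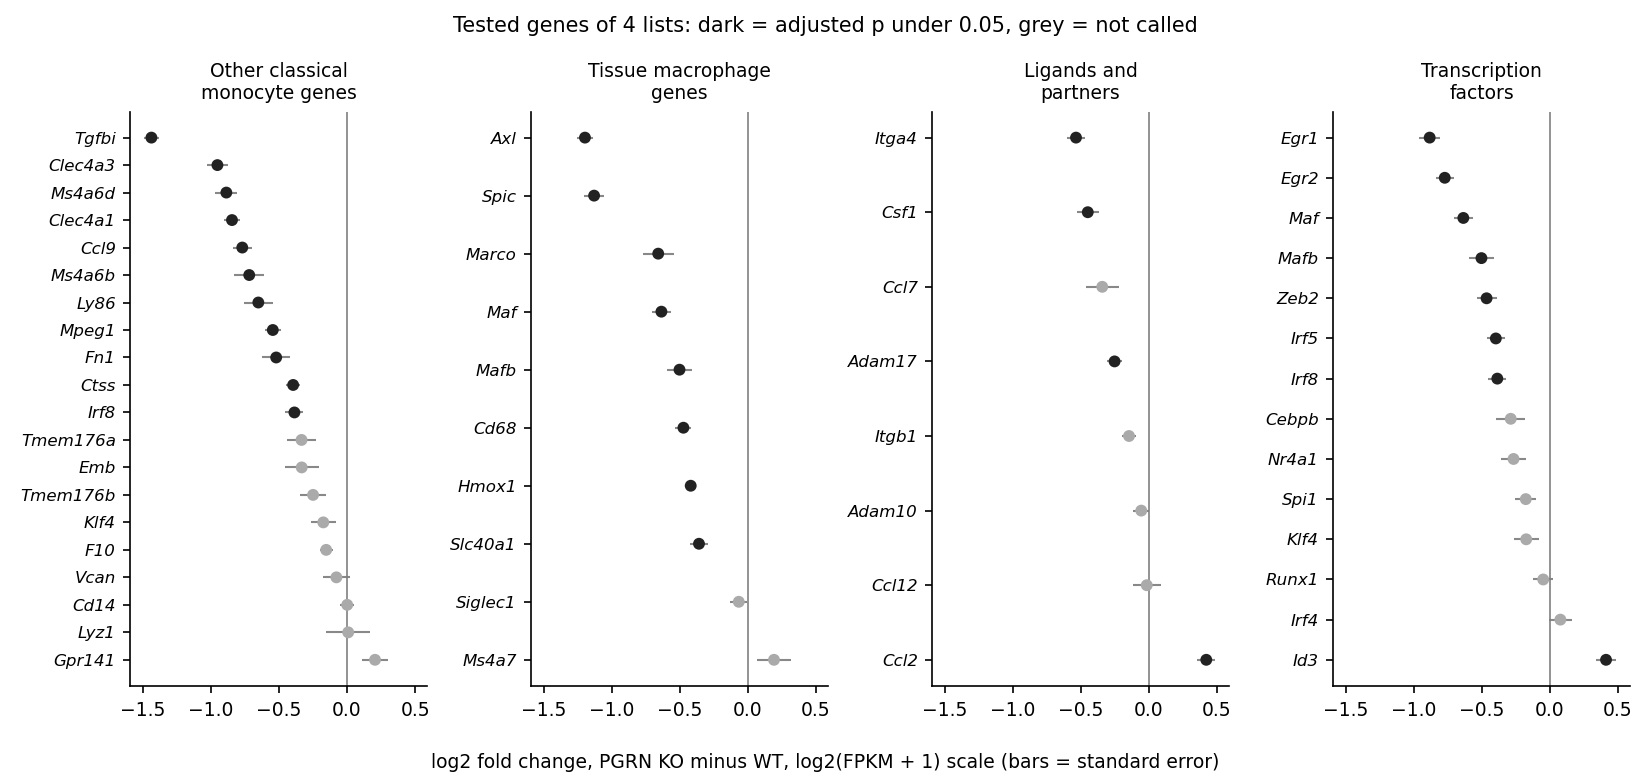
Log2 difference of PGRN KO from WT (error bars, standard error) for tested genes of the lists beside the 9 genes, 1 point per gene. The lists shown are the other classical monocyte genes, tissue macrophage genes, ligands and partners, and transcription factors. Dark points were called at an adjusted p under 0.05 and grey points were not. Most genes of the classical monocyte and tissue macrophage lists lie below 0.

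Markers of other cells moved with the genotype beside these genes. Over all tested genes, 7.94% were called higher and 9.95% lower. Of the 7 genes of granulocyte progenitors, 6 were tested and all 6 were called higher, with a summed level of 129.9 to 145.5 FPKM in WT against 610.9 to 672.7 in PGRN KO. Elane, the neutrophil elastase gene made in promyelocytes, was at 62.94, 59.16 and 56.43 FPKM in WT against 262.9, 260.1 and 245.5 in PGRN KO. B and plasma cell genes were higher in 5 of 6 tested (summed 43.77 to 47.57 FPKM in WT against 92.76 to 107.7 in PGRN KO), and basophil and mast cell genes in 4 of 5 (2.041 to 2.466 and 11.01 to 12.53 FPKM). Eosinophil genes were higher in 3 of 4 (1.682 to 2.529 and 4.963 to 8.564 FPKM), T and NK cell genes in 1 of 2 (2.493 to 3.291 and 7.538 to 8.674 FPKM, with Cd3e at 0 in all libraries) and erythroid genes in 2 of 2 (0.9751 to 2.789 and 4.588 to 5.331 FPKM). The T and NK cell sum was almost all Nkg7, which averaged 2.54 FPKM in WT against 7.79 in PGRN KO. Cd3d, the other tested gene of that list, averaged 0.433 and 0.278 FPKM and was not called. Tnfrsf17 (0 FPKM in all WT libraries), Fcer1a and Epx passed the filter only through their PGRN KO values, which favours a higher call. With a filter at 1 FPKM, 3 of 4 tested B and plasma cell genes were called higher. Under that filter 2 of 2 basophil and mast cell genes and 1 of 1 eosinophil genes were called higher. Of the 12 neutrophil genes 1 was higher and 2 were lower, but scaled to plain totals 4 were higher and 0 lower, and limma voom called 6 higher and 1 lower. With 1 library left out, the count called higher was 5 to 6 for granulocyte progenitors, and it dropped to 3 for B and plasma cell genes (without WT 1, WT 3, PGRN KO 4 or PGRN KO 6) and to 1 for eosinophil genes (without WT 1, WT 3 or PGRN KO 6). The basophil and mast cell count dropped to 3 without WT 1, WT 2, WT 3, PGRN KO 4 or PGRN KO 6, and rose to 5 without PGRN KO 5. The erythroid count dropped to 0 without WT 2 and to 1 without WT 3, PGRN KO 4, PGRN KO 5 or PGRN KO 6, and the neutrophil calls were lost in both directions without any 1 WT library. The part of these cells in the levels of Ly6c2, Vcam1 or Ccr2 was not tested.

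The genes most like each of the 9 were those with the smallest root mean square difference between the log2(FPKM + 1) profiles over the 6 libraries, each centred on its mean, among 9079 genes with a mean of at least 1 FPKM. For Ccr2 they were Ifi205 (0.0474), Lpl and Lhfpl2, for Ms4a6c they were Lgmn (0.0445), Ifi30 and Cd40, and for Ms4a4c they were C3ar1 (0.0416), Ms4a6d and Gm5431. The profiles nearest to Ly6c2 were those of Fam96a (0.0367), Wfdc21 and Gm4739, and the nearest to Vcam1 were those of Asprv1 (0.0559), Rps18 and Cst7. F13a1 was nearest to Gdpd1 (0.0238) and Sh3bgrl. The 3 genes with little difference between the genotypes had close neighbours, Csf1r in Hars2 (0.0165), Wtap and Sap130, Cx3cr1 in Ddx56 (0.0111), Xpc and Nup205, and Adgre1 in Naip2 (0.0212), Ppig and Cd300c2. None of the 9 had another of the 9 among its 3 nearest genes.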

How the data were processed

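The authors isolated neutrophils with anti-Ly-6G beads, selected poly-A RNA, made libraries with a kit that does not mark strand, sequenced paired ends, mapped the reads and deposited FPKM values. The submitters' processing notes name CASAVA, HISAT2 2.0.5, featureCounts 1.5.0-p3, DESeq2 1.20.0 and mm10/GRCm38, while the methods of the study name HISAT and HTSeq. GENCODE M21 holds 54495 of the gene identifiers, 53585 of them at identical positions. Multiplied by gene length and by the library size found for each library, every FPKM value above 0 came within 0.05 of a whole number of fragments. The authors divided by library sizes of 16679058 to 17126452 (WT) and 17848820 to 19656980 (PGRN KO), which differ from the fragment sums. Intervals of counting error do not cover amplification.

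Genotypes were compared with limma 3.58.1 (lmFit, eBayes with trend) in R 4.3.3 on log2(FPKM + 1), over genes averaging 0.1 FPKM or more, two-sided, with Benjamini-Hochberg adjustment. A fold on this scale understates the change of low genes. The method was tested on simulated data. The rest used numpy 2.4.6, pandas 2.3.3 and matplotlib 3.10.9 under Python 3.11.15. Replicate pairs differed by a chi-square per degree of freedom of 2.83 to 11.67, so none was counted as a library deposited again under another name.

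The 9 genes and all gene lists were chosen with earlier results of these data known. Named genes are Grn, the 9, the tested Ly6 and Ms4a paralogs, up to 3 genes called higher and 3 called lower of each list with the largest change, and the 3 nearest profiles; other list members are named with their list. Alternatives were a pseudocount of 0.1, no filter, a filter at 1 FPKM, plain totals, limma voom on recovered fragments and each library left out. The macrophage libraries were not analysed here, and a few members of the lists and profiles are not reported here.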

Additional observations from a re-analysis of the deposited data

How the results depend on the processing

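Scaled to plain totals of fragments, 2147 genes were called higher and 933 lower in PGRN KO, and limma voom on recovered fragments called 2984 higher and 1252 lower. The share of calls that were higher was 44.4% with the authors' scaling, 69.7% with plain totals and 70.4% with voom, and the median log2 difference over all genes was 0.07 and 0.12 under the last pair. The difference of Adgre1 reversed under both, to 0.024 and 0.025. Voom added 2 classical monocyte genes called higher (Cd14 and Gpr141) and 1 nonclassical gene (Adgre4). With 1 library left out, the calls over all genes were 540 (without WT 2) to 913 higher and 775 (without PGRN KO 5) to 1248 lower. The transcription factors called higher were 0 to 1, the ligands and partners called lower 1 to 4, and the nonclassical genes called lower 2 to 4. Of 99 recomputed differences of the 9 genes, 86 moved by less than 1 SD between replicates, 11 moved by more and 2 reversed. The 86 include every value with 1 library left out. In groups of this size such a shift cannot reach 1 SD, so that count was fixed in advance too. The moved and reversed values came only from the pseudocount of 0.1, plain totals and voom. The 86 also include the values with no filter and with a filter at 1 FPKM. A filter cannot change a gene's own difference, so those values were fixed in advance and say nothing of its stability. That of Ccr2 ran from -1.11 to -0.74, of Ms4a6c from -1.18 to -0.99, of Ms4a4c from -0.996 to -0.794, of F13a1 from -0.54 to -0.34, of Csf1r from -0.18 to -0.037, of Cx3cr1 from 0.071 to 0.28, of Ly6c2 from 0.28 to 0.49 and of Vcam1 from 0.68 to 0.85. No paired analysis was possible because replicate numbers are not shared between the genotypes. Depth limits Cx3cr1 most, at 379 fragments in WT, and the mice and the supplier behind each genotype cannot be told apart from the genotype.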

Other observations

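Of 13 genes of class II presentation and dendritic cells, 8 were tested, and 5 were called lower in PGRN KO and none higher. Over all tested genes, 9.95% were called lower and 7.94% higher. The summed level of the 13 genes was 160.9 to 172.6 FPKM in WT against 96.24 to 107.8 in PGRN KO. H2-Aa, a chain of class II, was at 19.07, 18.01 and 18.63 FPKM in WT against 6.667, 5.935 and 6.298 in PGRN KO (log2 difference -1.42, SE 0.056, limma adjusted p = 5.5e-05). Ccr7, the receptor that leads dendritic cells to lymph nodes, averaged 25.1 ± 1.19 and 11.6 ± 1.66 FPKM (SD, n = 3 each; log2 difference -1.06, limma adjusted p = 0.00136), and H2-Ab1 averaged 33.3 ± 3.30 and 17.7 ± 0.755 FPKM (limma adjusted p = 0.00113). Cd74 and Itgax were also lower. Xcr1, Clec9a and Tcf4, which mark kinds of dendritic cell, were not called, and Flt3, Zbtb46, Siglech, Cd209a and Ccr9 were too low to be tested.

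Of 12 genes induced by interferon, 6 were called lower and none higher, beside 9.95% lower and 7.94% higher of all tested genes. The median log2 difference of the 12 was -0.24. Mx1, an antiviral GTPase, was at 22.46, 20.81 and 22.48 FPKM in WT against 9.370, 10.31 and 12.31 in PGRN KO (log2 difference -0.98, SE 0.095, limma adjusted p = 0.00142). Ifit2 and Rsad2 had log2 differences of -0.51 and -0.36, and Cxcl10, Oasl2 and Irf7 were also lower. Without PGRN KO 5 the calls of Ifit2, Oasl2 and Irf7 were lost, those of Oasl2 and Irf7 were also lost without WT 1 or WT 2, and under both other scalings, and that of Irf7 was also lost without PGRN KO 6. Isg15, Ifit1, Ifit3, Usp18 and Ifi44 were among those not called.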
